A study of Mus musculus with 6 samples.

Results

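The genes described here are 7 genes of secreted and lysosome-linked macrophage proteins: the galectin genes Lgals1, Lgals3, Lgals8 and Lgals9, Lgals3bp, which encodes a galectin-3 binding protein, Spp1, which encodes osteopontin, and Gpnmb, a transmembrane glycoprotein gene. They were taken by name from the 55536 annotated genes of the count files, and all 7 passed the filter on low counts, among 15376 genes tested. RNA was sequenced from RAW264.7 cells, an established mouse macrophage line, in 2 groups of 3 libraries: control cells that received phosphate-buffered saline (PBS) and cells that received titanium (Ti) particles, a model of wear debris from implants. The labels give C57BL/6 as the background strain for both groups, though RAW264.7 is usually described as derived from BALB/c, and the strain was not checked here. The labels state no dose, particle size or length of exposure. All 6 libraries come from 1 cell line, and no label says that they were separate cultures, so the p-values here reflect only sample-to-sample spread, which may be technical.

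Galectins are lectins that bind beta-galactoside sugars. Some of them gather on damaged endosomes and lysosomes, where glycans of the inner membrane face become exposed to the cytosol, and others are secreted and cross-link glycoproteins on cell surfaces. Osteopontin is a secreted phosphoprotein of bone matrix and of activated macrophages that binds integrins and CD44, and GPNMB (osteoactivin) is found in lysosomes and at the surface of macrophages and osteoclasts. In macrophages laden with material that is hard to digest, Spp1, Gpnmb and Lgals3 are often used together as markers.

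The deposited values, whole numbers per transcript, were taken as estimated counts, though no source used here names their unit. They grow with genomic span, so each was multiplied by exon length over span and summed per gene. The rescaled totals were 37686020 to 60242937 per library. A count of 3, the floor taken for detection, came to 0.0498 to 0.0796 CPM (the count scaled to a common library size) over these totals, and it covers counting error only. CPM values below are over library sizes scaled by edgeR's TMM method, and sets of 3 values are in the order of replicates 1, 2 and 3. The labels do not say that libraries of the same number are paired. Results within a number, or fitted by number, rest on an assumed pairing. The labelled cell type was checked on its markers. Of 10 macrophage genes 9 were tested, with summed levels of 5618 to 7471 CPM in control and 6968 to 8798 CPM with Ti, and Mertk was at most 0.129 CPM. Lyz2 was the largest part of the sum, at 3745 to 5363 CPM over the libraries. Single markers varied more: Csf1r read 472, 1462 and 1598 CPM in the controls and 1387, 144 and 435 CPM with Ti. Itgam ran from 11.9 to 112 CPM. T cell markers summed to at most 0.0938 CPM and B cell markers to at most 0.0499 CPM, and fibroblast markers to at most 0.328 CPM, with 4 of 7 of them at 0 in every library.

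None of the 7 genes passed an adjusted p of 0.05 with Ti particles (edgeR quasi-likelihood, Benjamini-Hochberg over all genes tested; lowest adjusted p 0.781, for Spp1). Over all genes tested 4 passed, or 0.026%. At an unadjusted edgeR p under 0.05 there were 0 of the 7, against 6.76% of all genes. DESeq2 called none of them either, against 0.925% of all genes. In the DESeq2 model Spp1 alone had an unadjusted p under 0.05, at 0.0357 (adjusted p = 0.590). The voom fit of limma, with quality weights, called none, with an unadjusted p of 0.0217 for Spp1 and 0.0145 for Gpnmb. In 0 of the 7 did the 3 Ti libraries all lie on one side of the 3 control libraries, which held for 13.3% of genes tested (6.63% with Ti above and 6.71% with Ti below). The log2 fold change was positive in 5 of the 7, with a median of 0.31, while over all genes tested 7829 of 15376 were positive and the median was 0.0053. Leaving out Ti replicate 3 brought that median to 0.040, leaving out both libraries numbered 3 to 0.012, and leaving out Ti replicate 2 to 0.57. As these are bulk samples, more RNA per cell and more cells of one state cannot be told apart.

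**Figure D1:**
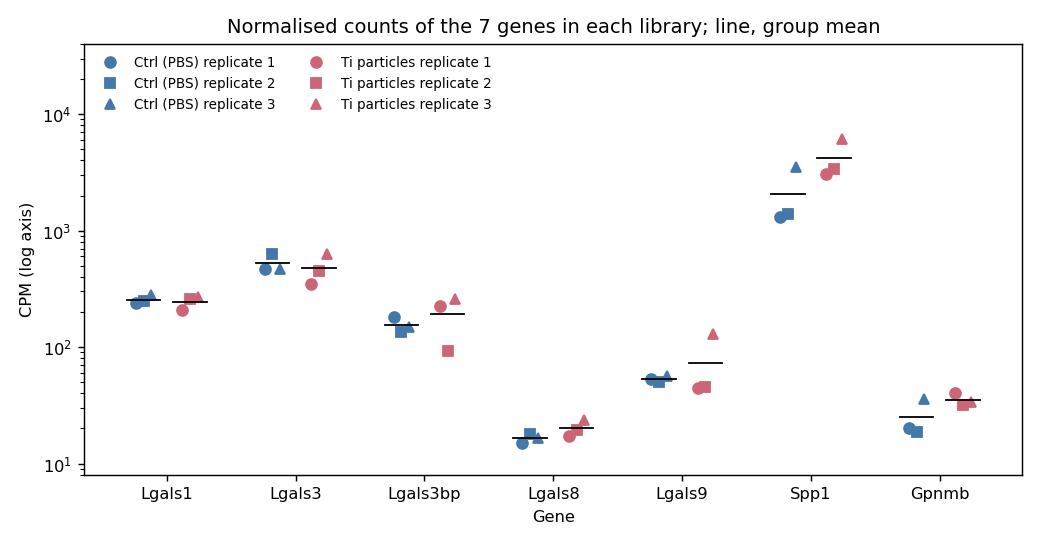
CPM (log axis) of each of the 7 genes in the 6 libraries, blue for control and red for Ti, with the marker shape giving the replicate number and a line at each group mean. Spp1 is the gene of highest CPM throughout, replicate 3 is its highest library in both groups, and Lgals9 is high in Ti replicate 3 alone.

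Spp1 had the largest fold change of the 7. It read 1316, 1379 and 3539 CPM in the controls and 3032, 3409 and 6096 CPM in the Ti libraries. Replicate 3 was the highest library of each group, 2.63 times the mean of the other control libraries and 1.89 times the mean of the other Ti libraries, and control replicate 3 lay above both lower Ti libraries, so the groups overlapped. Within each replicate number the Ti library was higher, by 2.30-fold, 2.47-fold and 1.72-fold for numbers 1, 2 and 3. The means were 2078 ± 1265 CPM in control and 4179 ± 1671 CPM with Ti (SD, n = 3 in each), or 1.01 ± 0.48 as log2 Ti over control (SE; edgeR adjusted p = 0.781). Leaving out control replicate 3 gave 1.64 and leaving out Ti replicate 3 gave 0.64. Leaving out both, a setting chosen after seeing the data, gave 1.26 (edgeR adjusted p = 0.138). Blocking on replicate number in the edgeR fit gave 1.10, with an unadjusted p of 0.0013 against 0.0779 without the block, and an adjusted p of 0.317; 9.37% of all genes had an unadjusted p under 0.05 in that fit and 0 passed the adjustment.

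Spp1 (ENSMUSG00000029304, GRCm38 chr5:104435118-104441050, plus strand) has 7 annotated transcripts that fall into 2 classes by where they start. Of these 6 start at the upstream first exon, and 1, called the internal-start transcript here (ENSMUST00000112747), starts 1074 bases further down, inside the first intron of the others. The main transcripts of both classes (ENSMUST00000031243 and ENSMUST00000112748 upstream) are annotated as protein-coding. Each of these upstream transcripts shares 1324 exon bases with the internal-start transcript. The 250 bases before each of the RefSeq starts (GRCm38.p6) are shown because the estimates of the 2 classes differed between libraries. Capitals mark matches to the motifs searched.
Spp1 upstream start, chr5:104434861-104435110, plus strand: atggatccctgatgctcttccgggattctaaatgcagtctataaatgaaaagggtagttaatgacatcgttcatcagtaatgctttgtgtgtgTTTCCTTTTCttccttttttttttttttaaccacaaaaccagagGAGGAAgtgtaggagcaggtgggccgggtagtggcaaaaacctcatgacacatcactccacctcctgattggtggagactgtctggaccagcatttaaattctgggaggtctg
Spp1 internal start, chr5:104435942-104436191, plus strand: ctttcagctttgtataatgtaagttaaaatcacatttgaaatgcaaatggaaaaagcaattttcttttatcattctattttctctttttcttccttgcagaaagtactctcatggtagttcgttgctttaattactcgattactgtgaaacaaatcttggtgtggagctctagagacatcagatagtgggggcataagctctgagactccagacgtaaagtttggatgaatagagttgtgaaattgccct

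The motifs were chosen for factors active in macrophages and were searched on both strands: the E-box CACGTG of the MiT/TFE factors, the M-box TCATGTG, the AP-1 site TGANTCA, the PU.1 core GAGGAA, an NF-kB p65 core GGGNNTTCC and the interferon-stimulated response element (ISRE). The upstream window held the PU.1 core, 113 to 108 bases before the start, and the response element, 157 to 148 bases before it. Of 32851 RefSeq windows of the same length 23.3% held the PU.1 core and 2.98% the response element. The internal window held none of the 6. A match is a description of the letters and not a binding site, and no match says only that these letters are not in the window.

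Among the Spp1 transcripts with at least 10% of the sum in some library, the internal-start one alone had separate groups. The internal-start transcript read 309, 1068 and 564 CPM in the controls and 2375, 2704 and 3877 CPM in the Ti libraries. Its 3 Ti libraries lay above the 3 control libraries, which happened in either direction for 10.4% of the 41599 transcripts tested. The fold was 7.68, 2.53 and 6.87 within numbers 1, 2 and 3, and the log2 fold change was 2.18 ± 0.49 (edgeR over all transcripts, unadjusted p = 0.0045, adjusted p = 0.661). It did not pass the adjustment, which 0.00721% of transcripts did; 4.29% had an unadjusted p under 0.05. With 1 library left out at a time the log2 fold change was 1.84 to 2.79 (edgeR adjusted p 0.310 to 0.852).

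The upstream-start transcripts together read 1007, 312 and 2974 CPM in the controls and 657, 705 and 2219 CPM in the Ti libraries. The Ti range lay inside the control range, and the Ti library was the lower one for numbers 1 and 3. The internal-start transcript thus held 23.5%, 77.4% and 15.9% of the Spp1 sum in the control libraries and 78.3%, 79.3% and 63.6% in the Ti libraries. Within each replicate number the share was higher in the Ti library. Control replicate 2 had a share near those of the Ti libraries, so the shares overlapped, 39.0 ± 33.5% against 73.8 ± 8.81% (SD, n = 3 per group; exact two-sided permutation test without pairing, p = 0.2, where 0.1 is the smallest p possible; adjusted over the 7 genes p = 1).

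How reads were divided between these transcripts limits this. Of the 1507 exon bases of the internal-start transcript, 74 lie in no other Spp1 transcript, and it shares 1324 of the 1410 exon bases of the main upstream-start transcript. All 74 also lie inside Gm42793, a same-strand single-exon model (chr5:104435121-104436372) that runs from the upstream first exon past the internal start. Gm42793 read 13.6, 11.2 and 37.8 CPM in the controls and 28.2, 23.9 and 88.9 CPM in the Ti libraries, again highest in replicate 3 of each group. Its part in the estimate for the internal-start transcript was not tested.

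**Figure D2:**
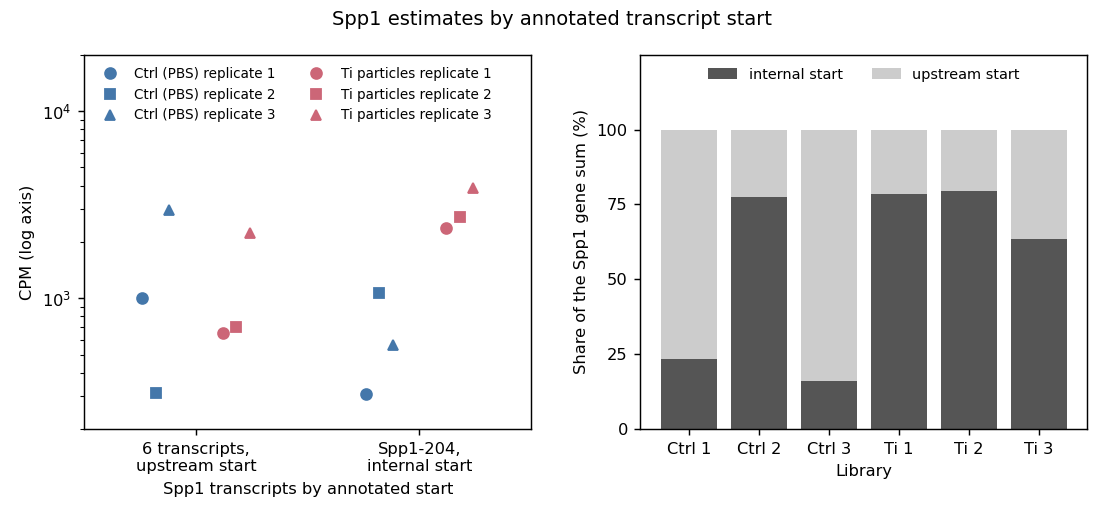
Left, CPM (log axis) of the 6 upstream-start transcripts summed and of the internal-start transcript, by library; right, the share of the Spp1 gene sum (%) held by each class in each library. The internal-start transcript is higher in each Ti library than in any control library, while the upstream class overlaps, and control replicate 2 has a share of 77.4% next to 63.6% to 79.3% with Ti.

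Gpnmb (ENSMUSG00000029816, chr6:49036546-49070929, plus strand) had the lowest level per length of the 7 on average over the libraries. It read 20.2, 18.7 and 35.6 CPM in the controls and 40.5, 31.8 and 33.5 CPM in the Ti libraries. Control replicate 3 again stood above the other control libraries, and it alone made the groups overlap. Ti over control was 2.01-fold for number 1, 1.70-fold for number 2 and 0.941-fold for number 3. The log2 fold change was 0.51 ± 0.28 (edgeR adjusted p = 0.823), and 0.86 without control replicate 3, with an unadjusted p of 0.0034 and an adjusted p of 0.354. ENSMUST00000031840, a protein-coding transcript of 11 exons, held 95.3% to 97.8% of the sum in every library, so transcript choice varied little here.

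Lgals3 encodes galectin-3, which macrophages make in quantity and which gathers on ruptured phagosomes. Lgals3 (ENSMUSG00000050335, chr14:47367751-47386160, plus strand) read 471, 629 and 471 CPM in the controls and 350, 450 and 624 CPM in the Ti libraries. The groups overlapped, and the direction within numbers differed, 0.743-fold, 0.716-fold and 1.32-fold for numbers 1, 2 and 3. The log2 fold change was -0.14 ± 0.24 (edgeR adjusted p = 0.968), which became -0.39 when Ti replicate 3 was left out, 0.0085 when control replicate 2 was and 0.034 when Ti replicate 1 was. Of its 6 annotated transcripts 3 reached 10% of the sum in some library, and they differ in their first exon and their 3′ end. ENSMUST00000150290 held 34.9% to 85.4%. ENSMUST00000142734 held 27.5%, 14.2% and 17.6% in the controls and 44.2%, 23.5% and 39.8% in the Ti libraries. Its log2 fold change was 0.73 ± 0.35, opposite in sign to that of the gene (edgeR over all transcripts, unadjusted p = 0.0883, adjusted p = 0.99998). Without Ti replicate 3 it was 0.36. ENSMUST00000146468 held 37.4% in control replicate 1 and at most 3.85% in the other libraries, a single-library difference inside a gene sum that did not stand out there.

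Lgals1 encodes galectin-1, a small galectin with a single sugar-binding domain that acts as a dimer. Lgals1 (ENSMUSG00000068220, chr15:78926725-78930465, plus strand) was the steadiest of the 7 across the 6 libraries, with the highest 1.33 times the lowest. It read 238, 246 and 280 CPM in the controls and 209.9, 258 and 269 CPM in the Ti libraries. Ti over control was log2 -0.053 ± 0.13 (edgeR adjusted p = 0.982), between -0.12 and 0.047 with 1 library left out, and its main transcript held 99.3% to 99.9% of the sum.

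Lgals8 and Lgals9 encode galectins with 2 sugar-binding domains joined by a linker. Galectin-8 recruits autophagy receptors to damaged vesicles, and galectin-9 is a ligand of TIM-3, the product of Havcr2. Lgals8 (ENSMUSG00000057554, chr13:12439415-12464944, minus strand) read 15.04, 17.95 and 16.66 CPM in the controls and 17.1, 19.4 and 23.6 CPM in the Ti libraries. Ti was the higher library for each number, by 1.14-fold, 1.08-fold and 1.41-fold, while the groups overlapped at control replicate 2 and Ti replicate 1. The change was log2 0.28 ± 0.17 (edgeR adjusted p = 0.848), and 0.15 without Ti replicate 3. Heatr1, at 196 to 284 CPM, lies on the other strand, and 875 exon bases of Lgals8 fall inside its span, introns included. The longest alignment between transcripts of these genes was 156 bases at 100% identity. Whether the counting used strand is not given in the sources used here, so reads cannot be told apart where the transcripts overlap.

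Lgals9 (ENSMUSG00000001123, chr11:78962974-78984946, minus strand) turned on 1 library. It read 53.3, 49.8 and 56.0 CPM in the controls and 44.1, 44.9 and 129 CPM in the Ti libraries. Ti replicates 1 and 2 were below all control libraries, and Ti replicate 3 was 2.90 times their mean. The log2 fold change was 0.46 ± 0.44 (edgeR adjusted p = 0.938) with all libraries and -0.25 without Ti replicate 3 (unadjusted p = 0.0866, adjusted p = 0.700).

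The sequences below are shown because the first is the window before the Lgals9 start, and the second is the coding exon by which its 2 expressed coding transcripts differ. Exon 5 of ENSMUST00000108269, 93 bases or 31 codons in the linker region, is missing from ENSMUST00000108268. Capitals again mark motif matches, and 22 bases of the window lie in an annotated first exon.
Lgals9 window, chr11:78984925-78985174, minus strand: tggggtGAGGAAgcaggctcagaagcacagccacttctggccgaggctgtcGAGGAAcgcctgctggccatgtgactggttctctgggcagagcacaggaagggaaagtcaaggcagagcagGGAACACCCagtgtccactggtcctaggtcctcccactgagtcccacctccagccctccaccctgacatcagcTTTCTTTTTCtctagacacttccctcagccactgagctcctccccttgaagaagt
Lgals9 exon 5, chr11:78969714-78969806, minus strand: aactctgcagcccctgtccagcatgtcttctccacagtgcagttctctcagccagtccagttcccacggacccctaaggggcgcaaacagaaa

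The Lgals9 window held the PU.1 core at 2 places, the NF-kB core 128 to 120 bases before the start (4.98% of all windows held it) and the interferon-stimulated response element 55 to 46 bases before the start. No matches overlapped. Of the 7 genes 6 have an entry in the promoter table, all but Lgals1. Lgals3bp held the M-box (3.25% of windows) 30 to 24 bases before the RefSeq start. Of that window 133 bases lie in annotated exons of Lgals3bp, and the M-box match is among them. The windows of Gpnmb, Lgals8 and Lgals3 held none of the 6 motifs. The E-box (6.02% of windows) and the AP-1 site (6.75%) were in none of the windows of these genes. The transcript with exon 5 held 68.6%, 76.0% and 68.5% of the Lgals9 sum in the controls and 70.4%, 69.0% and 75.4% in the Ti libraries. The group means of that share differed by less than the SD of either group (71.0 ± 4.33% against 71.6 ± 3.38%, SD, n = 3 per group; exact two-sided permutation test, p = 0.8).

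Lgals3bp encodes a secreted glycoprotein that binds galectin-3 and is induced by interferons. Lgals3bp (ENSMUSG00000033880, chr11:118392751-118402092, minus strand) read 181, 135 and 149 CPM in the controls and 225, 92.3 and 256 CPM in the Ti libraries. The Ti libraries lay on both sides of the control range, replicate 2 below it and replicates 1 and 3 above it. The log2 fold change was 0.31 ± 0.37 (edgeR adjusted p = 0.953), 0.64 without Ti replicate 2 (unadjusted p = 0.0098, adjusted p = 0.605) and 0.040 without Ti replicate 3. Its main transcript held 98.6% to 99.4% of the sum.

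**Figure D3:**
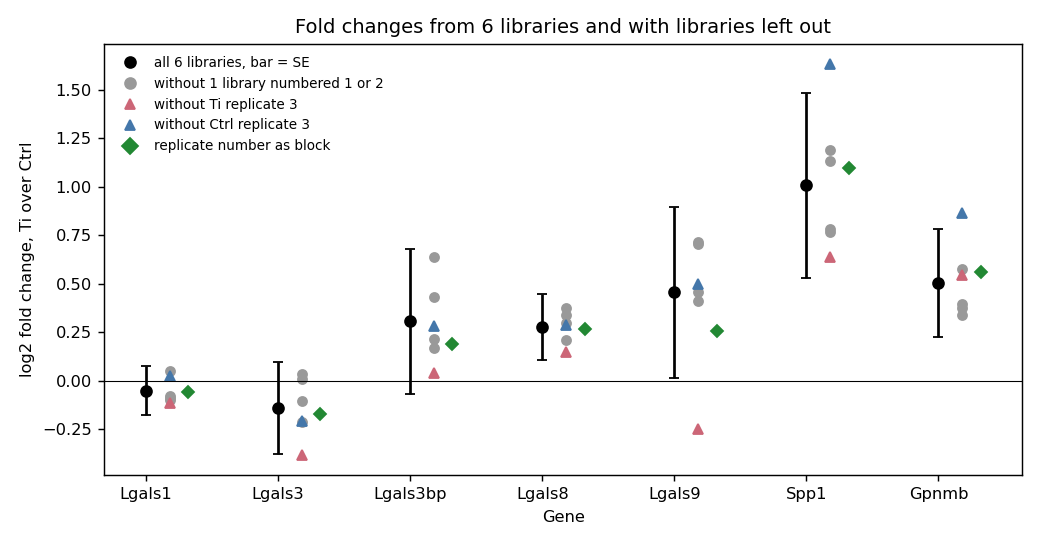
Log2 fold change of Ti over control for each of the 7 genes: black with SE bars from all 6 libraries, grey circles without 1 library numbered 1 or 2, red and blue triangles without Ti or control replicate 3, green diamonds with the replicate block. Lgals9 crosses 0 without Ti replicate 3 (-0.25), and Spp1 ranges from 0.64 to 1.64 without replicate 3 of one group or the other.

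The 7 genes differed in how unevenly they were expressed inside a group. Among 8191 tested genes with a mean of at least 10 CPM, the median coefficient of variation (SD over mean) was 12.2% in control and 13.6% with Ti. In control Spp1 had 60.9% and Gpnmb 37.7%, above 94.8% and 87.1% of these genes, and Lgals9 had 5.85%. With Ti the order was another: Lgals9 had 67.2%, Lgals3bp 45.5%, Spp1 40.0% and Gpnmb 13.1%. Lgals1 had 8.62% and 12.8%, below the median in both groups.

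By level per exon length, the rescaled count over exon length set to the same total in each library, the order was Spp1, Lgals3, Lgals1, Lgals3bp, Lgals9, Lgals8 and Gpnmb. Spp1 read 1120, 1132 and 3379 in the controls and 2784, 2575 and 5509 in the Ti libraries, between the 89th and the 9th gene of the library. Spp1 was 1.94 to 8.84 times Lgals3 in the same library. Lgals3 and Lgals1, at 487 and 398 on average over the 6 libraries, were in this order in 5 of 6 libraries and differed by at most 1.55-fold, so their order is not beyond the spread. Lgals8 and Gpnmb, at 13.8 and 10.9, were in this order in 4 of 6 libraries. The other neighbours kept their order in all 6 libraries, Lgals3bp at 99.2 and Lgals9 at 51.7 on average. Of 7 further galectin genes listed, 1 was tested: Lgalsl, a galectin-related gene, had 19.7 ± 0.520 CPM and 19.8 ± 2.12 CPM (control and Ti, SD, n = 3 each; log2 fold change 0.010 ± 0.14, edgeR adjusted p = 0.999, which turned negative without control replicate 2, without Ti replicate 2, with no filter and with voom). Lgals12 and Grifin were at 0 in every library, Lgals2, Lgals4 and Lgals7 were at most 0.312 CPM, and Lgals6 had no row under that name.

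Partner genes were taken from lists of galectin ligands, osteopontin receptors and processing enzymes, Gpnmb regulators and genes of lipid-associated macrophages. None passed in edgeR (0 of 10, 0 of 11, 0 of 8 and 0 of 13 tested). At an unadjusted p under 0.05 there were 2, 4, 3 and 6 of them, and 3, 8, 4 and 9 with the replicate block, against 6.76% and 9.37% of all genes tested. DESeq2 called 0 galectin partners, Itga5, Mmp9 and Mmp12 higher and Itgb5 lower among the osteopontin genes, Flcn lower among the Gpnmb genes, and Cd63 higher among the lipid-associated genes. It tested 11, 14, 8 and 14 genes of these lists and called 0.925% of all genes it tested. Mmp9, a gelatinase gene that did not pass edgeR's filter, was near 0 in control and in Ti replicate 2 (0.0536 CPM) and at 5.45 and 5.72 CPM in Ti replicates 1 and 3. The voom fit called 0. The median log2 fold changes were 0.019, 0.60, 0.065 and 0.33, against 0.0053 over all genes. That of the osteopontin list was 0.32 without Ti replicate 3, and for the galectin partners it ran from -0.13 (control replicate 1 left out) to 0.32 (Ti replicate 1 left out). For the Gpnmb list it was 0.19 without control replicate 3 and -0.016 without control replicate 2.

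Integrin subunit genes differed in sign. Itga5, the alpha 5 subunit that pairs with beta 1 and binds fibronectin and osteopontin, read 168, 172 and 172 CPM in the controls and 335, 281 and 276 CPM in the Ti libraries, with all Ti libraries higher (log2 fold change 0.80 ± 0.10, edgeR adjusted p = 0.134; DESeq2 adjusted p = 6.64e-05). Itgb5, a partner of the alpha v subunit, stood at 95.0, 95.3 and 78.9 CPM and at 61.4, 56.7 and 50.1 CPM, with all Ti libraries lower (-0.68 ± 0.13, edgeR adjusted p = 0.284; DESeq2 adjusted p = 0.0260). Itga4, the alpha 4 subunit, had -0.58 ± 0.14 (edgeR adjusted p = 0.414). Itgb3, the beta 3 subunit of the osteoclast vitronectin receptor, was at most 0.288 CPM and was not tested, and Itga9 was at 0.

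Of the Gpnmb list, Flcn had the largest difference. It encodes folliculin, which keeps the transcription factors TFE3 and TFEB in the cytosol when nutrients are present, and Gpnmb is a known target of that family. Flcn read 34.1, 40.8 and 47.9 CPM in the controls and 10.7, 14.9 and 10.3 CPM in the Ti libraries, all Ti libraries lower (log2 fold change -1.78 ± 0.22, edgeR adjusted p = 0.134; DESeq2 adjusted p = 9.64e-10). The genes of that family differed in sign, none past the threshold. Tfec had 0.68 ± 0.23 (edgeR adjusted p = 0.635), Mitf 0.38 ± 0.21 (adjusted p = 0.823) and Tfe3 0.13 ± 0.16 (adjusted p = 0.955). Tfeb had -1.27 ± 0.55 (edgeR adjusted p = 0.758), with 40.6, 8.18 and 32.2 CPM in the controls and 10.96, 10.8 and 11.9 CPM in the Ti libraries, so that control replicate 2 lay below all Ti libraries. Sdc4, a syndecan that binds GPNMB, had 0.71 ± 0.28 (edgeR adjusted p = 0.731), and the replicate block took its unadjusted p from 0.0429 to 0.000629.

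Among galectin partners Havcr2 read 26.0, 26.2 and 21.0 CPM in the controls and 6.35, 17.0 and 5.49 CPM in the Ti libraries. All Ti libraries were lower, with replicate 2 the nearest to control (log2 fold change -1.34 ± 0.46, edgeR adjusted p = 0.638). With 1 library left out it ran from -2.04 (Ti replicate 2 left out) to -1.06 (Ti replicate 3 left out). Trim16, an E3 ligase that works with galectin-3 on damaged lysosomes, was scarce at 1.12 to 1.501 CPM in control and 1.93 to 2.58 CPM with Ti (0.85 ± 0.25, edgeR adjusted p = 0.536). Tfrc, the transferrin receptor, had 0.46 ± 0.25 (edgeR adjusted p = 0.823). Of the lipid-associated genes, Cd63, a tetraspanin of late endosomes, had 0.51 ± 0.10 (edgeR adjusted p = 0.307; DESeq2 adjusted p = 0.0381). Lipa, the lysosomal acid lipase gene, had -0.47 ± 0.12 (edgeR adjusted p = 0.431), and Ctsl, a lysosomal protease gene, had 0.33 ± 0.086 (edgeR adjusted p = 0.458).

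**Figure D4:**
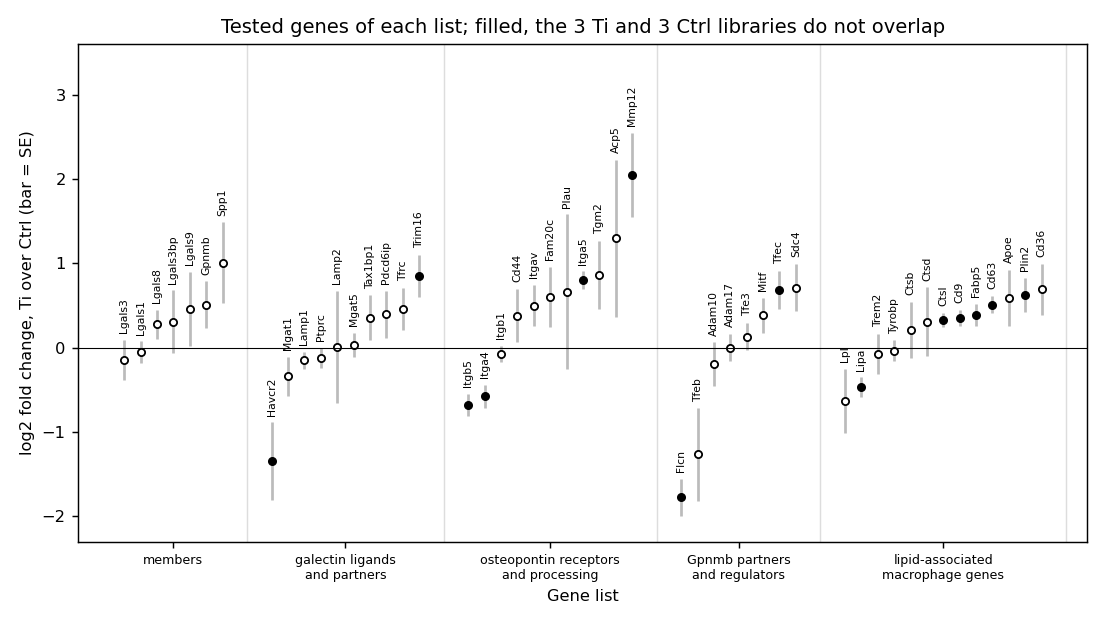
Log2 fold change with SE of each tested gene by list, filled where the 3 Ti and 3 control libraries do not overlap. Each of the 7 main genes is an open circle. Of 10 galectin partners, 11 osteopontin, 8 Gpnmb and 13 lipid-associated genes, 1, 2, 1 and 5 are filled with Ti higher. Filled with Ti lower are 1, 2, 1 and 1. Over all genes tested the shares were 6.63% and 6.71%. Itga5 (0.80) and Flcn (-1.78) are among the filled genes.

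Spp1 and Gpnmb are also expressed by osteoclasts, so 8 osteoclast markers were set beside them. They summed to 222 to 393 CPM in control and 244 to 638 CPM with Ti, most of it from Nfatc1, a transcription factor gene that other cells also express, at 198 to 366 and 217 to 588 CPM. The other 7 summed to 26.7, 25.4 and 23.8 CPM in the controls and 49.8, 51.6 and 26.6 CPM in the Ti libraries, so that Ti replicate 3 lay inside the control range. Of 6 tested, 5 had a positive log2 fold change, with a median of 0.82, and 0 passed in edgeR. At an unadjusted p under 0.05 there was 1, and 4 with the replicate block, against 6.76% and 9.37% of all genes tested. DESeq2 tested 7 and called 1, Atp6v0d2, a subunit gene of the vacuolar proton pump, higher, against 0.925% of all genes it tested. The calcitonin receptor gene Calcr was at 0 in every library, and Oscar was at most 0.192 CPM. Acp5 was low in replicate 3 of both groups (1.58 and 2.93 CPM, against 8.53 to 23.7 CPM in the others), the libraries in which Spp1 was highest. Dcstamp, a cell fusion gene, was highest in those libraries instead, with 6.03, 5.44 and 11.6 CPM in the controls and 9.42, 12.1 and 15.6 CPM in the Ti libraries. Ocstamp was the tested marker with a negative log2 fold change, -0.51 ± 0.29 (edgeR adjusted p = 0.832). Its groups overlapped, and its lowest library was Ti replicate 3. The part of these markers in the Spp1 and Gpnmb values was not tested.

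Genes with the most similar pattern over the 6 libraries were found by the root mean square difference of log2 CPM, each gene centred on its own mean, among 8190 other genes. For Spp1 they were Gm42635, a gene model still to be experimentally checked (0.18), and C3ar1, the receptor gene for complement C3a (0.19), which read 28.6, 26.8 and 62.1 CPM in the controls and 52.7, 50.8 and 129 CPM in the Ti libraries. For Gpnmb they were Fam126b (0.093) and N4bp2l2 (0.098), and for Lgals3 Wdr11 (0.12) was one of them. For Lgals9, added after its values were seen, they were Cmpk2 (0.090) and Usp18 (0.10), both known as interferon-stimulated genes. Cmpk2 read 23.2, 23.6 and 74.1 CPM in the Ti libraries and 24.4 to 32.4 CPM in the controls, high in the same single library as Lgals9. With so many genes and 6 libraries, close matches are a description only.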

How the data were processed

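RNA-seq values of 6 libraries were used, 3 per group as labelled. The authors deposited whole numbers for 187351 transcript rows, taken here as estimated counts because no source used here names the unit; HISAT2, StringTie and the build mm9 are named per the submitters' processing notes, without versions, and what did the counting is not stated there. The 141862 Ensembl rows match the transcripts of GENCODE vM21 (GRCm38) one for one, so names and coordinates are from it although the notes list mm9. The other 45489 rows, assembled transcripts without a gene or position (36.9% to 51.2% of the deposited totals), were left out. Deposited values rose with genomic span over exon length (lower quartile of nonzero values 2 in the lowest and 75 in the highest of 9 bins), so each was multiplied by exon length over span, summed per gene and rounded; this correction is approximate.

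Genes and, separately, transcripts went through edgeR 4.0.16 under R 4.3.3 (filterByExpr, TMM, quasi-likelihood) on rescaled estimated counts, adjusted by Benjamini-Hochberg at 0.05. SE is the log2 fold change over the square root of F. Alternatives were DESeq2 1.42.0, limma 3.58.1 (voom with quality weights), other filters and scaling, unrescaled values, the replicate block and leaving out libraries. Tests were tried on simulated data first. Named genes were the 7, up to 3 per list with the smallest p, any list gene past the threshold, the 2 nearest patterns for Spp1, Gpnmb and Lgals3 (1 of them is not reported here), and transcripts with at least 10% of a gene sum; the genes DESeq2 called, those of low level, the other MiT/TFE genes and single osteoclast markers were named after their values were seen. The 7 genes and all lists were chosen with earlier results of these data known. In a chi-square comparison none of the 6 pairs of libraries within a group agreed within the sampling noise of counts. The values are rescaled and their unit is unnamed, so their true sampling noise is not known. That comparison therefore cannot judge the replicates. Same-numbered libraries deviated together from their group means, weakly for numbers 1 and 2 (correlations across genes 0.115, 0.147 and 0.272). Between different numbers the correlations were 0.031 and 0.033 for numbers 1 and 2, and -0.165 to -0.132 where number 3 took part. A fit with the replicate number as a block was run beside the unblocked fit that the values come from. That pairing rests on these correlations and not on the labels. The permutation tests of shares are unpaired. Sequences are from RefSeq (GRCm38.p6) and, for the exon, GENCODE. Plots were made with matplotlib 3.10.9.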

Additional observations from a re-analysis of the deposited data

How the results depend on the processing

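None of the 7 genes was called under any of the 14 alternatives run, 13 planned and 1 (without both libraries numbered 3) chosen after seeing the data. Spp1, Gpnmb, Lgals8 and Lgals3bp kept a positive log2 fold change in all 14 (0.64 to 1.64, 0.34 to 0.90, 0.15 to 0.38 and 0.012 to 0.64). The direction turned for Lgals9 without both libraries numbered 3 (-0.21) and without Ti replicate 3 (-0.25), for Lgals3 without control replicate 2 (0.0085) or Ti replicate 1 (0.034), and for Lgals1 without control replicate 3 (0.023) or Ti replicate 1 (0.047). With 1 library left out the ranges were -0.39 to 0.034 for Lgals3, -0.25 to 0.71 for Lgals9, -0.065 to 0.088 for Lgalsl, -0.22 to 0.058 for Wdr11, -0.24 to 0.82 for Cmpk2 and -0.14 to 0.65 for Usp18. Cmpk2 and Usp18 turned to -0.24 and -0.14 without Ti replicate 3 and to -0.12 and -0.032 without both libraries numbered 3, Wdr11 to 0.0074 and 0.058 without control replicate 2 and Ti replicate 1, and Lgalsl, near 0, to -0.00020 with no filter on low counts, -0.011 without control replicate 2, -0.065 without Ti replicate 2 and -0.038 with voom.

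Over all genes, 2 were called higher and 2 lower. The numbers were 0 and 0 with the replicate block, 0 and 0 without both libraries numbered 3, 141 and 99 with DESeq2, 5 and 5 with voom, 2 and 1 with no filter, and 1 to 8 and 0 to 7 with 1 library left out. Over all transcripts, 2 were called higher and 1 lower. With no filter, a mean of at least 50 counts, the replicate block and without both libraries numbered 3 it was 0 and 0, and 0 to 0 and 0 to 1 with 1 library left out. The replicate block changed no call among the 7 genes. The cause of these differences was not tested. Estimates for single transcripts rest on few distinguishing bases, and since rescaling changes counts, floors are approximate.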
